A study of Homo sapiens with 36 samples.

Results

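The microRNAs miR-128 and miR-218, 2 families linked to neurons, were followed through the AGO2 pulldowns and lysates of HEK293T cells. Members were all guide strands of the MirGeneDB families Mir-128 and Mir-218 in the deposited table, which came to 4 rows of 135. They hold 3 distinct sets of values, Hsa-Mir-128-P1_3p, Hsa-Mir-128-P2_3p and Hsa-Mir-218-P2_5p, because Hsa-Mir-218-P4_5p had the same value as Hsa-Mir-218-P2_5p in all 36 libraries. HEK293T, an established human embryonic kidney line, was transfected with Flag/HA-tagged WT-AGO2, with the same construct carrying F182del, N359H, G604R or D619N, or with the Flag/HA-empty vector, and in all groups with a GFP plasmid that served to check transfection. F182del lacks a phenylalanine in the linker ahead of the PAZ domain, N359H changes an asparagine of the second linker, and G604R and D619N change residues of the PIWI domain. Each of these 6 groups was sequenced as lysate (input) and after pulldown with anti-HA beads (IP), with 3 replicates of each of the 12 conditions. The AGO2 variants come from individuals with a neurodevelopmental syndrome, and the comparison of each variant with WT-AGO2 asks whether the variant carries a different set of miRNAs. HEK293T cells also make AGO2 of their own, and only tagged protein is pulled down, so IP describes transfected AGO2 and input the whole lysate.

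AGO2 holds a short guide RNA and pairs it with messenger RNAs, mainly through the seed at bases 2 to 8 of the guide. A miRNA is cut from a hairpin as a duplex, of which the guide strand stays in AGO2 while the passenger strand, marked with an asterisk in MirGeneDB names, is mostly discarded. miR-128 is one of the abundant miRNAs of the brain, where it dampens the excitability of neurons. miR-218 is known for its high level in motor neurons. HEK293T cells are not neurons, and the neuronal miRNA family Mir-124 was not among the listed rows.

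Mature strands and loci were taken from RefSeq (GRCh38.p14), the same build as in the submitters' processing notes. MIR128-1 (chr2:135665397-135665478, plus strand) lies in an intron of R3HDM1 and MIR128-2 (chr3:35744476-35744559, plus strand) in an intron of ARPP21, a gene of neurons. MIR218-1 (chr4:20528275-20528384, plus strand) lies in an intron of SLIT2 and MIR218-2 (chr5:168768146-168768255, minus strand) in an intron of SLIT3, both genes of secreted axon guidance proteins. The guide strands that the results turn on, and the 5′ arms of both Mir-128 hairpins, which are the passenger strands, are shown with the seed in capitals.
hsa-miR-128-3p: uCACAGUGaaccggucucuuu
hsa-miR-218-5p: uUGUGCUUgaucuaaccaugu
hsa-miR-128-1-5p: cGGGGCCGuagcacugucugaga
hsa-miR-128-2-5p: gGGGGCCGauacacuguacgaga
Both Mir-128 hairpins give the same miR-128-3p and both Mir-218 hairpins the same miR-218-5p. A read of only this mature sequence cannot be assigned to a locus. The 5′ arms differ between the hairpins but share their seed. Of 2370 mature human miRNAs in RefSeq, 3 carry the seed CACAGUG, namely miR-128-3p itself, miR-216a-3p and miR-3681-3p, while miR-218-5p was alone with UGUGCUU. The letters CACAGUG also stand 1 base further in, at positions 3 to 9, in the miR-27 guides, shown here because a Mir-27 guide followed the pattern of Mir-128 most closely among all other families.
hsa-miR-27a-3p: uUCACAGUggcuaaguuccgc
hsa-miR-27b-3p: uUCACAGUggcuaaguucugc

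Values were RPM, the reads of a miRNA relative to all reads of its library on a fixed scale. For each library a unit was chosen of which every value above 0 was a whole multiple, within 0.02. Reads were inferred by taking this unit as 1 read, which was not shown independently. On this basis 116 values were of 1 read and 444 of 2 reads. All reads, total reads and limits in reads given here rest on it. Total reads lay between 16636 and 754009 in the 15 IP libraries of AGO2, between 18032 and 48080 in the 3 of the empty vector, and between 575821 and 4162450 in 15 inputs. The other 3 inputs were shallow, with 148205 reads for N359H replicate 1, 17118 for D619N replicate 1 and 9395 for G604R replicate 1, and calls that change without them are given both ways. Mature miRNAs took 1.84% to 11.7% of reads in the IP of AGO2, 0.356% to 0.970% in that of the empty vector and 0.223% to 4.50% in input. Of the families expected in this line, Mir-92 took 17.3% to 51.4% and Mir-10 20.9% to 46.8% of mature miRNA reads, while Mir-17 took 0% to 3.15%. Families that mark liver, blood or muscle were not among the listed rows. Nothing in the labels says whether replicates were separate cultures, so p-values measure the spread between these samples, which may be technical. In bulk libraries fewer cells that carry a miRNA and less of it per cell cannot be told apart.

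The Mir-128 rows were nearly the same measurement. Hsa-Mir-128-P1_3p and Hsa-Mir-128-P2_3p were identical in 31 of 36 libraries, and in the other 5 P2 had more reads. These were 105 against 102 and 25 against 23 in WT IP replicates 1 and 3, 33 against 29 in F182del input replicate 2, 81 against 71 in N359H input replicate 2, and 30 against 28 in empty vector input replicate 2. Over 19 comparisons the log2 fold changes of P1 and P2 differed by at most 0.12 and no call differed. Hsa-Mir-128-P2_3p is therefore given below as Mir-128 and Hsa-Mir-218-P2_5p as Mir-218.

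Mir-128 was read in all 15 IP libraries of AGO2, with 4 to 105 reads in each. In the IP of WT-AGO2 it stood at 375, 194 and 91.3 RPM in replicates 1 to 3 (105, 20 and 25 reads). In that of F182del it stood at 47.4, 79.1 and 59.7 RPM, and in that of G604R at 51.9, 42.0 and 77.8 RPM. All libraries of these 2 variants lay below all WT libraries, although WT replicate 3 was close to the highest of them. N359H gave 166, 242 and 289 RPM. D619N gave 367, 109 and 481 RPM, the widest spread, from 21, 8 and 8 reads. Both variants overlapped WT-AGO2. In the IP of the empty vector Mir-128 was at 0 in 2 libraries and at 35.7 RPM, a single read, in the other. By mean the order in IP was D619N (319 RPM ± 190, SD, n = 3), N359H (232 ± 61.7), WT-AGO2 (220 ± 144), F182del (62.0 ± 16.0), G604R (57.3 ± 18.5) and empty vector (11.9 ± 20.6). In this order WT-AGO2 and F182del did not overlap. G604R and the empty vector, which were next to each other, could not be told apart at this depth, since 3 reads in the empty vector libraries are worth 62.4 to 166 RPM. All other neighbours overlapped.

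**Figure D1:**
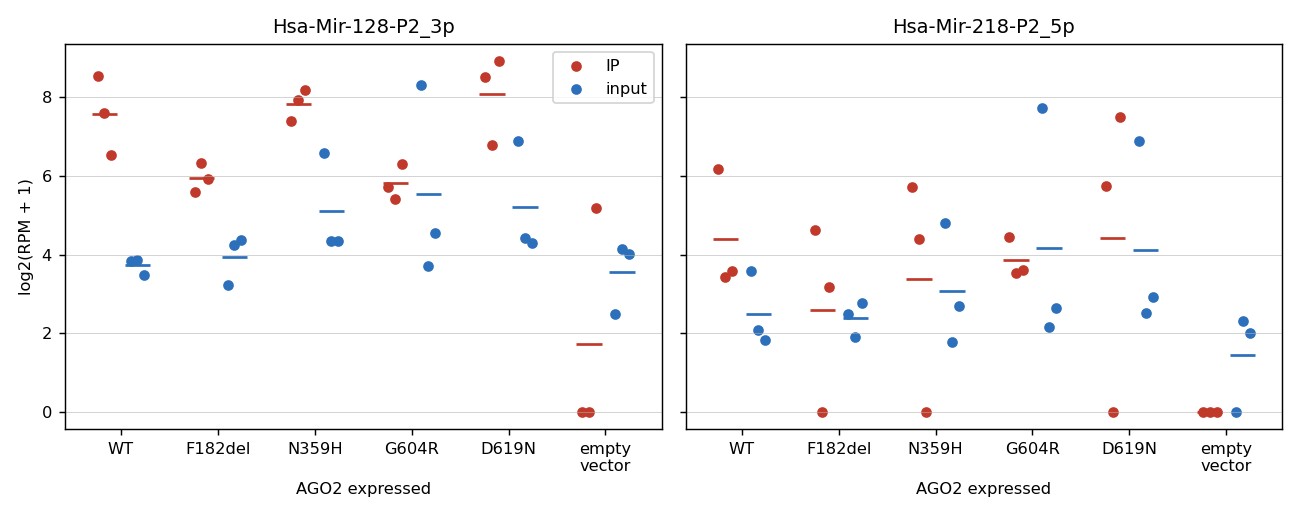
Level of Mir-128 (left) and Mir-218 (right) as log2(RPM + 1) in each library, by the AGO2 expressed, with IP in red and input in blue. Points are the 3 replicates and bars their mean. For Mir-128 the IP points lie above the input points for WT-AGO2, F182del and N359H, and the high input points of N359H, G604R and D619N are the shallow replicate 1, at 94.5, 319 and 117 RPM. For Mir-218 the IP points reach 0 in F182del, N359H and D619N and all 3 are at 0 for the empty vector.

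Mature miRNAs took 10.7%, 6.05% and 2.15% of reads in the WT-AGO2 libraries, 4.09%, 3.10% and 2.34% in F182del and 2.70%, 1.84% and 1.996% in G604R, so this share was lower by mean in both variants but overlapped WT-AGO2. Its part in the RPM difference was not tested. Lying below all WT libraries in RPM was common, at 14.3% of the miRNAs tested for F182del and 22% for G604R. As a share of mature miRNA reads, Mir-128 took 0.366% ± 0.0536 (SD, n = 3) in WT-AGO2, 0.209% ± 0.0804 in F182del, 0.270% ± 0.105 in G604R, 0.408% ± 0.214 in N359H and 0.347% ± 0.0572 in D619N. On this scale all 3 F182del libraries still lay below the WT libraries, as did 10.5% of the miRNAs tested. The exact permutation test, two-sided, gave p = 0.1 for F182del, the smallest p that 3 libraries against 3 allow (adjusted p = 0.4 over 4 variants). For the other variants the exact permutation p lay between 0.3 and 0.8 (adjusted p between 0.6 and 0.8).

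Mir-128 was not called for any variant against WT-AGO2 in IP. Libraries were first scaled to each other by median-of-ratios factors, limma was then run on log2(RPM + 1), and calls needed both an adjusted p under 0.05 and a fold change beyond 1 on the log2 scale in either direction. For F182del the log2 fold change was -0.82 (SE 0.37, 95% interval -1.62 to -0.02, limma adjusted p = 0.216), against a median of 0.01 over the 133 miRNAs tested, of which 6.02% were called. For G604R it was -0.64 (SE 0.36, interval -1.48 to 0.20, limma adjusted p = 0.397), against a median of -0.34 and with 4.88% called. These intervals leave room for a decrease of more than 1 on the log2 scale in both variants. N359H gave 0.10 (SE 0.41, interval -0.80 to 0.997, limma adjusted p = 0.910), where 0% were called and 6 miRNAs had an unadjusted p below 0.05. D619N gave -0.04 (SE 0.23, interval -0.60 to 0.52, limma adjusted p = 0.927) with 14.6% called, and 0.51 on RPM as deposited, where the direction is the other way. On RPM as deposited the values were -1.62 for F182del and -1.75 for G604R, also without a call, and the median over all miRNAs was then -0.78 and -1.39.

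In input Mir-128 stood at 8.34 to 22.6 RPM in all AGO2 libraries but the 3 shallow ones. It was at 13.4, 13.4 and 10.1 RPM for WT-AGO2, at 8.34, 18.1 and 19.6 RPM for F182del and at 4.59, 16.8 and 15.1 RPM for the empty vector. N359H gave 94.5, 19.5 and 19.5 RPM and D619N 117, 20.4 and 18.6 RPM, so both lay above all WT inputs, as did 2.86% of the miRNAs tested for N359H and 3.92% for D619N. The D619N value of 117 RPM rests on 2 reads. G604R gave 319, 12.1 and 22.6 RPM, where 319 RPM is 3 reads, and overlapped WT-AGO2. Without the shallow library the log2 fold change against WT-AGO2 was 0.64 for G604R, 0.72 for N359H and 0.48 for D619N, again without a call. As a share of mature miRNA reads the N359H inputs held 0.696%, 0.700% and 0.811% of Mir-128, above the WT inputs at 0.245%, 0.588% and 0.453%, a position that 7.62% of miRNAs shared. Not one of these differences was called. The limma log2 fold change was 0.68 for N359H (SE 0.35, adjusted p = 0.826), 0.63 for G604R (SE 0.47, adjusted p = 0.668), 0.27 for F182del (SE 0.44, adjusted p = 0.994), 0.02 for D619N (SE 0.54, adjusted p = 0.995) and -0.02 for the empty vector (SE 0.47, adjusted p = 0.990). No miRNA was called in these inputs (0%), with 9, 2, 11, 4 and 3 at an unadjusted limma p below 0.05 for F182del, N359H, G604R, D619N and the empty vector.

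Whether IP departed from input differently in a variant than in WT-AGO2 was tested as an interaction. For Mir-128 it was -1.13 (SE 0.58, limma adjusted p = 0.363) for F182del, -1.34 (SE 0.64, adjusted p = 0.648) for G604R, -0.87 (SE 0.57, adjusted p = 0.647) for N359H and -0.09 (SE 0.63, adjusted p = 0.966) for D619N on the log2 scale. Without the shallow input it was -1.47 for G604R, -0.95 for N359H and -0.57 for D619N. None was called. Over all miRNAs 0.741% were called for F182del, 1.54% for G604R, 0% for N359H, where 5 had an unadjusted p below 0.05, and 3.94% for D619N. With the replicate as a block, which pairs IP and input of the same replicate number, 6 miRNAs in place of 1 were called for F182del. For G604R 0 in place of 2 were called and for D619N 1 in place of 5, none of them a member.

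**Figure D2:**
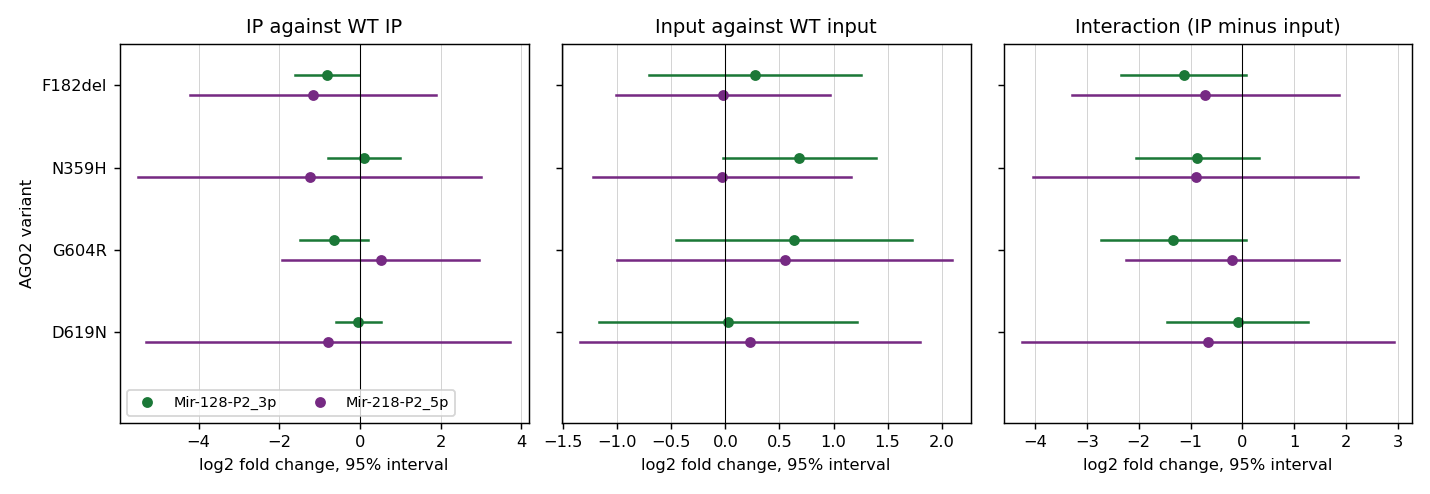
Log2 fold change of Mir-128 (green) and Mir-218 (purple) for each variant against WT-AGO2 in IP, in input, and as the interaction of IP minus input, as points with 95% intervals from limma. The x axes differ between panels. The interval of Mir-218 in IP reaches from -5.31 to 3.72 for D619N, the widest of all shown, and that of Mir-128 in IP for F182del ends at -0.02.

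Mir-128 was enriched in the pulldown of WT-AGO2. Set against the input of the same replicate, IP was 28.1, 14.5 and 9.04 times higher, and all mature miRNAs together were 19.6, 26.5 and 9.64 times higher. The log2 fold change on RPM as deposited was 3.84 (SE 0.89, limma adjusted p = 5.27e-05), beside a median of 3.74 and 79.4% of miRNAs called. Mir-128 thus stood at about the middle of all miRNAs, at rank 59 of 126. Relative to the other miRNAs, with median-of-ratios scaling, the log2 fold change was 0.09 (limma adjusted p = 0.875).

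The F182del pulldown also held more Mir-128 than its lysate, by 5.68, 4.37 and 3.05 times, where all mature miRNAs were higher by 14.7, 10.7 and 9.005 times. In each F182del replicate Mir-128 was therefore enriched less than the mature miRNAs as a whole. The log2 fold change was 2.001 (SE 0.40, limma adjusted p = 0.000476) with a median of 2.71 and 69.7% called, at rank 95 of 132. With median-of-ratios scaling it was -1.003 (limma adjusted p = 0.101). In N359H the ratios were 1.76, 12.4 and 14.8, below those of all mature miRNAs, at 6.08, 22.0 and 19.1, in each replicate. The log2 fold change was 2.73 (SE 0.96, limma adjusted p = 0.0156) with 43% called, and the call was lost in 5 of 6 fits that left out 1 library, with adjusted p between 0.0502 and 0.118. Without the shallow N359H input it was 3.47 (limma adjusted p = 3.77e-06), where 60 of 112 miRNAs were called. With median-of-ratios scaling it was -0.76 (limma adjusted p = 0.153), not called and with the other sign.

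Mir-128 was called in G604R and D619N, on RPM as deposited, only without their shallow input. In G604R, IP over input was 0.163, 3.47 and 3.45, against 0.6002, 8.17 and 8.79 for all mature miRNAs. The log2 fold change was 0.29 (SE 1.47, limma adjusted p = 0.877) with 26.2% of miRNAs called. Without G604R input replicate 1 it was 1.68 (limma adjusted p = 0.0163, a call), where 65 of 102 miRNAs were called. With median-of-ratios scaling it was -1.14 (limma adjusted p = 0.128). In D619N the ratios were 3.14, 5.35 and 25.9, against 2.60, 11.9 and 34.1. The log2 fold change was 2.88 (SE 1.78, limma adjusted p = 0.213) with 8.74% called (9 miRNAs, and 20 with the replicate as a block). Without D619N input replicate 1 it was 3.72 (limma adjusted p = 0.00183, a call), where 48 of 99 miRNAs were called. With median-of-ratios scaling it was 0.06 (limma adjusted p = 0.942).

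**Figure D3:**
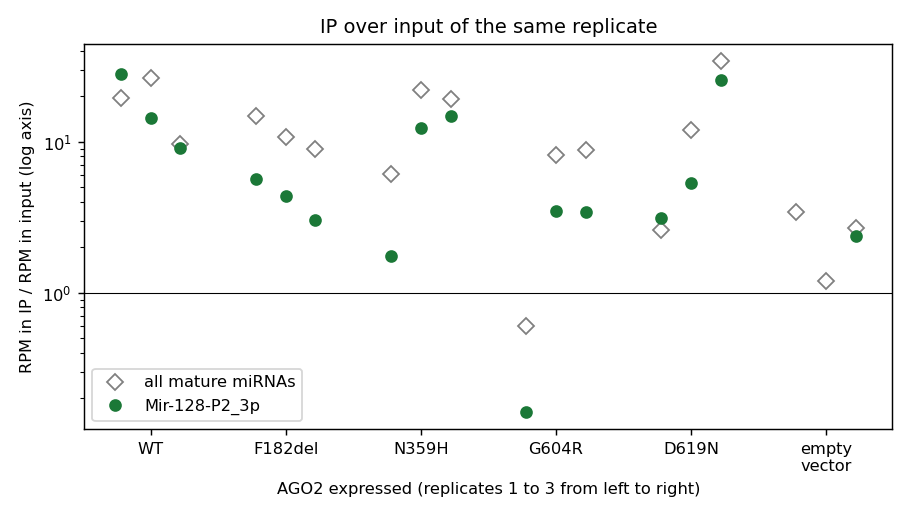
RPM in IP divided by RPM in the input of the same replicate, on a log axis, for Mir-128 (green circles) and for all mature miRNAs together (open diamonds), replicates 1 to 3 from left to right. The circle lies below the diamond in all replicates of F182del, N359H and G604R, and the first G604R replicate, whose input holds 9395 reads, is below 1. Mir-128 of empty vector replicates 1 and 2 is at 0 in IP and has no circle.

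The empty vector gives the background of the pulldown. Its IP held 1 read of Mir-128 among 94127 reads in all, against 150 among 656725 for WT-AGO2, a ratio of 0.0465 (exact 95% interval 0.00117 to 0.263 from counting error only). Mir-128 was called lower in it than in the IP of WT-AGO2 (limma adjusted p = 0.00587), as were 79.3% of miRNAs. No fitted fold is given, since it depends on the pseudocount where libraries are at 0. All 3 empty vector libraries lay below the WT libraries, as did 78.5% of miRNAs. With median-of-ratios scaling, which sets the 2 pulldowns to the same miRNA content, it was not called (limma adjusted p = 0.0935).

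Mir-218 was near the limit of detection in IP. In the IP of WT-AGO2 it stood at 71.5, 9.71 and 10.95 RPM (20, 1 and 3 reads) and in that of F182del at 23.7, 0 and 7.96 RPM (5, 0 and 6 reads). N359H gave 51.2, 20.2 and 0 RPM, G604R 20.8, 10.5 and 11.1 RPM, and D619N 52.4, 0 and 180 RPM, the last from 3 reads. Every variant overlapped WT-AGO2, and 7 of 18 IP libraries had 3 or more reads. By mean the order was D619N (77.6 RPM ± 92.8, SD, n = 3), WT-AGO2 (30.7 ± 35.3), N359H (23.8 ± 25.8), G604R (14.1 ± 5.76), F182del (10.5 ± 12.05) and the empty vector, and no neighbours in it lay apart. All 3 empty vector libraries were at 0, where 3 reads would have been 62.4 to 166 RPM, above the WT mean, so its absence there was not measurable at this depth. No fold is given for the same reason, although limma called Mir-218 lower (adjusted p = 0.000790).

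Input held Mir-218 more evenly, with 3 or more reads in 15 of 18 libraries. It stood at 10.9, 3.22 and 2.52 RPM for WT-AGO2, 4.63, 2.74 and 5.80 RPM for F182del, 27.0, 2.40 and 5.41 RPM for N359H, and 0, 3.92 and 3.02 RPM for the empty vector. In the shallow replicate 1 of G604R and D619N it was at 213 and 117 RPM, each from 2 reads. Their other replicates were at 3.46 and 5.21 RPM for G604R and at 4.71 and 6.56 RPM for D619N. All groups overlapped.

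As a share of mature miRNA reads in IP, Mir-218 took 0.0446% ± 0.0260 (SD, n = 3) in WT-AGO2, 0.0306% ± 0.0291 in F182del, 0.0317% ± 0.0311 in N359H, 0.0633% ± 0.0118 in G604R and 0.0665% ± 0.0796 in D619N. By exact permutation tests, two-sided, p lay between 0.4 and 0.9 (adjusted p between 0.8 and 0.9 over 4 variants).

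Mir-218 was not called for any variant. In IP the limma log2 fold change against WT-AGO2 was -1.16 for F182del (SE 1.41, adjusted p = 0.684), -1.24 for N359H (SE 1.96, adjusted p = 0.793), 0.51 for G604R (SE 1.06, adjusted p = 0.820) and -0.80 for D619N (SE 1.88, adjusted p = 0.803). On RPM as deposited it was -0.54 for G604R and 0.02 for D619N, both with the other sign. In input the log2 fold changes lay between -0.94 for the empty vector and 0.55 for G604R, with adjusted p from 0.724 to 0.994. The interactions lay between -0.90 for N359H and -0.19 for G604R, with adjusted p from 0.832 to 0.904. The 95% intervals in IP reached from -1.94 to 2.96 for G604R, the narrowest, so that a change of 1 on the log2 scale in either direction was not detectable at this depth.

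Mir-218 was less enriched in the WT-AGO2 pulldown than most miRNAs. IP over input was 6.53, 3.01 and 4.34, below all mature miRNAs in each replicate, and the log2 fold change of 1.90 (SE 1.02) ranked 107 of 126. Leaving out each library in turn gave 1.01 (without WT IP replicate 1, which holds 20 of the 24 reads) to 2.45, and median-of-ratios scaling gave -1.50 (limma adjusted p = 0.149), with the other sign. It was not called (limma adjusted p = 0.0726), but was with the replicate as a block (limma adjusted p = 0.00713). The block pairs IP and input of the same replicate number, which were taken to share a lysate. Their deviations from the group means correlated at 0.380, -0.0266 and 0.0327, so the values did not show the pairing in each replicate. With the block 108 of 126 miRNAs were called, and 100 of 126 without it. In the variants the log2 fold change of IP over input was 0.21 for F182del, 0.29 for N359H, -0.32 for G604R and 0.31 for D619N, with ranks of 124 of 132, 98 of 114, 90 of 103 and 83 of 103. Without the shallow input replicate 1 it was 1.15 for N359H, 1.46 for G604R, with the other sign, and 1.70 for D619N. None was called, with or without these inputs.

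Within a library the ratio of Mir-128 to Mir-218 does not depend on the scaling. It was 5.25, 20 and 8.33 in the IP of WT-AGO2, and 1.22, 4.17 and 4 in its input. In IP the mean log2 ratio was 3.26 ± 0.98 (SD, n = 3) for WT-AGO2, 1.95 ± 1.35 (n = 2 libraries with both above 0) for F182del, 2.64 ± 1.33 (n = 2) for N359H, 2.04 ± 0.74 (n = 3) for G604R and 2.11 ± 0.98 (n = 2) for D619N. The libraries left out are those with Mir-218 at 0, all of them of variants, and with 1 RPM added to both the difference from WT-AGO2 turned to 0.18 for F182del, 1.29 for N359H and 0.49 for D619N. By exact permutation tests, two-sided, p lay between 0.2 and 0.8 over 8 comparisons in IP and input (adjusted p = 0.8 for each). The smallest p these tests can give is 0.1 with 3 libraries against 3 and 0.2 with 2 against 3.

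The passenger strand of Mir-128 was seen nearly only in the pulldown. Of the passenger strands of both families Hsa-Mir-128-P2_5p* alone was listed, and it was at 0 in 16 of 18 inputs. In the IP of WT-AGO2 it stood at 85.7, 29.1 and 18.3 RPM (24, 3 and 5 reads), in that of F182del at 90.0, 98.8 and 45.1 RPM (19, 10 and 34 reads) and in that of G604R at 51.9, 42.0 and 44.5 RPM (5, 4 and 8 reads). N359H gave 38.4, 40.3 and 0 RPM and D619N 175, 0 and 120 RPM. All variants overlapped WT-AGO2. Against 3 reads per input library the mean in IP was at least 22.3-fold higher for WT-AGO2 (11.9-fold without replicate 1), 35.5-fold for F182del and 1.61-fold for D619N. For G604R no bound is given, since 3 reads in its inputs average more RPM than the IP held. Without the shallow input the bound was 11.8-fold for G604R and 24.6-fold for D619N. Both D619N bounds rest on 10, 0 and 2 reads in IP. Without its shallow input limma did not call the passenger strand for D619N (adjusted p = 0.124). All mature miRNAs together were 9.64 to 26.5 times higher for WT-AGO2 and 9.005 to 14.7 times for F182del. With the shallow inputs they were at 0.6002 to 8.79 times for G604R and 2.60 to 34.1 times for D619N. Limma called the passenger strand higher in IP than in input for WT-AGO2 (adjusted p = 4.61e-05), F182del (adjusted p = 1.64e-06) and G604R (adjusted p = 0.00110). Of all miRNAs 79.4%, 69.7% and 26.2% were called there. It was not called for N359H (limma adjusted p = 0.0955, 43% called) or D619N (adjusted p = 0.0864, 8.74% called). With median-of-ratios scaling it stayed called for WT-AGO2 (limma adjusted p = 0.0169), F182del (adjusted p = 0.000983) and G604R (adjusted p = 0.00530). Against the IP of WT-AGO2 its log2 fold change was 1.81 for F182del (SE 0.54, limma adjusted p = 0.0653) and 1.44 for G604R (SE 0.61, adjusted p = 0.318), neither of them called.

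The balance of the 2 strands of Mir-128-P2 was higher on the passenger side in every library of F182del and G604R than in any of WT-AGO2. Passenger over guide was 0.229, 0.15 and 0.2 in the IP of WT-AGO2, 1.90, 1.25 and 0.756 in F182del, and 1, 1 and 0.571 in G604R. All 3 ratios of both variants lay above the WT ratios, as they did for 17.4% of 23 miRNAs with both strands in F182del and 9.09% of 22 in G604R. Summed over replicates there were 63 passenger and 63 guide reads in F182del, 17 and 23 in G604R, and 32 and 150 in WT-AGO2. The mean ratio was 6.75 times that of WT-AGO2 (0.193 ± 0.0398, SD, n = 3) in F182del (1.30 ± 0.574) and 4.44 times in G604R (0.857 ± 0.247). The exact permutation test, two-sided, gave p = 0.1 for each, the smallest p that it can give (adjusted p = 0.2 over 4 variants). N359H gave 0.231, 0.167 and 0, and D619N 0.476, 0 and 0.250. Both overlapped WT-AGO2 (exact permutation p = 0.7 each).

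Tested with limma over all pairs of strands, the change in the log2 ratio was 2.68 for F182del (SE 0.65, unadjusted p = 0.00832, adjusted p = 0.191) and 2.13 for G604R (SE 0.73, unadjusted p = 0.0317, adjusted p = 0.233). Neither passed the adjusted threshold. Of all pairs 0% passed for F182del, 4.76% for N359H, 9.09% for G604R and 4.76% for D619N. For N359H the change was -3.38 (SE 3.09, adjusted p = 0.698) and for D619N -2.50 (SE 3.06, adjusted p = 0.586). Without the library that held no passenger read these values were 0.05 and 0.86. The guide row holds reads of both hairpins, since miR-128-3p is the same from each, while the passenger row is of P2 alone, so the ratio is not that of a single hairpin.

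**Figure D4:**
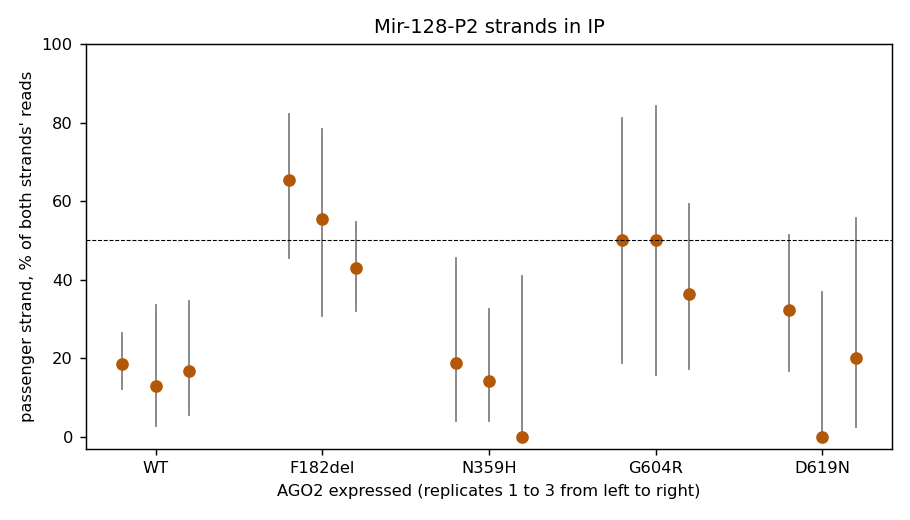
Passenger strand of Mir-128-P2 as a percent of the reads of both strands in each IP library, with exact 95% intervals from counting error only, and a dashed line where both strands are equal. WT-AGO2 lies at 18.6%, 13.0% and 16.7%, F182del at 65.5%, 55.6% and 43.0% and G604R at 50%, 50% and 36.4%. The intervals of 4.05% to 45.6% for N359H replicate 1 and 18.7% to 81.3% for G604R replicate 1 show how few reads stand behind these points.

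The levels of other families gave the nearest likenesses. Over the 12 condition means of log2(RPM + 1), Mir-128 was most like Hsa-Mir-27-P2_3p (Pearson r = 0.964), Hsa-Mir-26-P1_5p (0.955) and Hsa-Mir-28-P2_5p (0.9501), with a median of 0.731 over 97 miRNAs. Mir-218 was most like Hsa-Mir-148-P1_3p (0.942), Hsa-Mir-27-P2_3p (0.935) and Hsa-Mir-92-P2d_3p (0.930), with a median of 0.582 over 98. The points share their libraries and the large step between IP and input, so high values are common. Hsa-Mir-27-P2_3p stood at 1068, 476 and 274 RPM in the IP of WT-AGO2 and at 275, 296 and 174 RPM in that of F182del. Its limma log2 fold change in IP was -0.30 for F182del (adjusted p = 0.578), 0.01 for G604R (adjusted p = 0.967), -0.16 for N359H (adjusted p = 0.793) and 0.49 for D619N (adjusted p = 0.128), and it was not called.

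Of 11 other families linked to neurons 1 was listed, Mir-181, with 5 rows of which 3 were distinct. No row of it was called in any comparison of a variant with WT-AGO2, in IP, in input or as an interaction. The 4 rows tested in IP were 2 pairs of identical rows. Their log2 fold changes against WT-AGO2 in IP were -1.25 and 1.53 for F182del, beside a median of 0.01 over all miRNAs. For D619N they were -2.77 and 3.91, beside a median of -1.18. In the WT-AGO2 pulldown 2 of 4 tested rows were higher than in input (limma adjusted p = 0.00369), beside 79.4% of all miRNAs, and the same 2 rows, Hsa-Mir-181-P2a_5p and Hsa-Mir-181-P2b_5p, were lower in the empty vector pulldown than in that of WT-AGO2, beside 79.3% of all. These rows hold the same values. Hsa-Mir-181-P2a_5p stood at 32.2, 19.4 and 10.95 RPM in the IP of WT-AGO2 and at 1.22, 0.537 and 0 RPM in input.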

How the data were processed

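Small RNA of 36 HEK293T libraries (6 AGO2 groups, IP and input, 3 replicates) had been sequenced by the authors as single-end reads from TruSeq small RNA libraries. The authors ran the 2021 version of sRNAbench with a mean Phred quality of 20 and MirGeneDB 2.1, and deposited RPM, scaled to all reads of each library. GRCh38 is named in the submitters' processing notes. The terms minExpr1 and RCadj in the label of the table are not explained, so it is not known how reads shared by paralogues were divided or how low values were treated. Whole reads were inferred from the RPM (100% of 3305 values above 0, with the unit chosen so that values are whole). They were used to describe depth, for intervals of counting error, and for limits and bounds at 3 reads. No count model was fitted. Intervals and the limit of 3 reads cover counting error only.

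For each variant against WT-AGO2, in IP, input and their interaction, libraries were scaled by median-of-ratios factors over the miRNAs above 0 in all of them. IP against input and the empty vector IP used RPM as deposited. miRNAs with at least 1 RPM in at least 2 of 3 libraries of a group were tested on log2(RPM + 1) in R 4.3.3, using the limma 3.58.1 functions lmFit and eBayes (trend on), a scale that understates changes of low miRNAs, with Benjamini-Hochberg adjustment over all tested. Calls needed an adjusted p below 0.05 and a log2 fold change beyond 1 in either direction. Strand ratios were tested with lmFit and eBayes (trend off) on log2 of passenger over guide, with 1 CPM of mature reads added to each. Both strands needed more than 1 CPM in at least 2 of 3 libraries of a group, a limit that a single read passes. The threshold was a Benjamini-Hochberg adjusted p below 0.05 over all pairs. This test was added after the values were seen, as were the bounds on the passenger strand with libraries left out. Ratios and shares of mature reads, in which identical rows count once, were compared by exact permutation tests (scipy 1.17.1). The fits were also run on simulated libraries with large known changes, and no result given here rests on that run.

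The members, the lists of families and the tests were chosen with earlier results of these data known. The named miRNAs are all members, their passenger strand, for each of Mir-128 and Mir-218 the 3 miRNAs of other families with the highest r, and the listed neuronal and marker families. Mir-27 and Mir-181 values were chosen from these after they were seen. Same-numbered replicates of variant and WT-AGO2 were correlated in their deviations from the group means to see whether they pair. It was above 0.1 in all 3 only for F182del, in IP (0.339, 0.178 and 0.133) and in input (0.144, 0.249 and 0.228). The input was a sample of the lysate used for IP, so IP and input with the same number were taken to share a lysate. Their correlations were 0.380, -0.0266 and 0.0327 in WT-AGO2, and were above 0.1 in all 3 replicates for no AGO2 group. Alternatives were another pseudocount (10 RPM), no filter, other scaling, 1 fit of all AGO2 groups, the replicate block and each library left out. IsomiRs were not analysed here.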

Additional observations from a re-analysis of the deposited data

How the results depend on the processing

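Mir-128 and Mir-218 kept the absence of a call in all comparisons of a variant with WT-AGO2, in IP, in input and as an interaction, under all alternatives, but directions near 0 turned, and the cause was not tested. On RPM as deposited the log2 fold change in IP was 0.51 for Mir-128 in D619N (0.20 in 1 fit of all AGO2 groups), 0.0207 for Mir-218 in D619N and -0.54 for Mir-218 in G604R, and in the N359H input it was 0.59 for Mir-218. With a pseudocount of 10 RPM, Mir-128 in the empty vector input was at 0.00560 and the D619N interaction of Hsa-Mir-128-P2_5p* at 0.0220. Median-of-ratios scaling, which removes the difference in total miRNA content, set IP against input of Mir-128 to 0.0874 (WT-AGO2), -1.003 (F182del), -0.76 (N359H) and -1.14 (G604R), and that of Mir-218 to -1.50 (WT-AGO2), -2.05 (F182del), -2.48 (N359H) and -2.33 (D619N), without a call. It also took the call from Mir-128 in the empty vector IP (-4.11). The log2 ratio of Mir-128 to Mir-218 against WT-AGO2 in IP came to 0.18 (F182del), 1.29 (N359H) and 0.49 (D619N) with 1 RPM added, and with 10 RPM added to 0.53 (N359H, IP) and 0.0565 (D619N, input). In RPM of total reads, the difference from WT-AGO2 in place of the share was 98.8 RPM for Mir-128 in D619N and -16.6 RPM for Mir-218 in G604R.

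With the replicate number as a block, Mir-218 was called in the WT-AGO2 pulldown against input (1.90, limma adjusted p = 0.00713), where 108 of 126 miRNAs were called. Its value was 1.01 to 2.45 with each library left out, without a call. The block changed no other call of a member. It left 9 calls in place of 8 for F182del in IP and 0 in place of 6 for G604R in IP, where the numbers were not shown to pair the samples.

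Each library was left out in turn, which leaves 2 in an arm. For Mir-128 the log2 fold change in IP ranged from -0.20 to 0.50 for N359H and from -0.21 to 0.11 for D619N. In input the limits were -0.0517 and 0.62 (F182del), -0.33 and 0.48 (D619N), and -0.34 and 0.47 (empty vector). The D619N interaction ranged from -0.57 to 0.25. IP against input had the limits 2.36 and 3.47 (N359H), -0.62 and 1.68 (G604R), and 2.42 and 3.72 (D619N). For Mir-218 the ranges in IP were -2.21 to 0.31 for F182del, -2.22 to 0.39 for N359H, -0.0680 to 0.88 for G604R and -1.98 to 1.21 for D619N, and in input -0.22 to 0.23 for F182del and -0.26 to 0.29 for N359H. Its interactions ranged from -1.34 to 0.19 for F182del, -1.55 to 0.16 for N359H, -0.68 to 0.17 for G604R and -1.56 to 0.78 for D619N. Its IP against input ranged from -0.81 to 1.51 for F182del, -0.88 to 1.97 for N359H, -1.33 to 1.46 for G604R and -1.23 to 2.52 for D619N. For Hsa-Mir-128-P2_5p* the D619N value ranged from -2.43 to 0.96 in IP and from -1.55 to 0.96 as an interaction. For IP against input the D619N value ranged from 4.79 to 7.19, which depends on the pseudocount, since all 3 D619N inputs were at 0. It was called without D619N IP replicate 2, where 17 of 99 miRNAs were called. The N359H value for IP against input ranged from 3.27 to 5.15, which also depends on the pseudocount, since 2 N359H inputs were at 0. It was called without N359H IP replicate 3, where 76 of 114 miRNAs were called. The strand ratio ranged from -5.21 to 0.0462 for N359H and from -4.41 to 0.86 for D619N. The log2 ratio of Mir-128 to Mir-218 ranged from -1.56 to 0.33 for N359H in IP, and in input from -0.25 to 0.79 for F182del, -0.53 to 0.51 for G604R and -0.82 to 0.36 for D619N. The difference in the share of mature reads ranged, in percentage points, from -0.0672 to 0.146 for N359H and -0.0520 to 0.0107 for D619N for Mir-128, and from -0.0283 to 0.00132 for F182del, -0.0282 to 0.00288 for N359H and -0.0222 to 0.0552 for D619N for Mir-218.

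Hsa-Mir-128-P1_3p and Hsa-Mir-128-P2_3p differed in call in 2 of 241 fits, both with a library left out and an adjusted p near 0.05.

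Numbers of called miRNAs moved more than the members. Over all alternatives they ranged from 2 to 10 (main 8) for F182del in IP, 0 to 3 (main 0) for N359H, 0 to 14 (main 6) for G604R, 0 to 29 (main 18) for D619N and 72 to 101 (main 96) for the empty vector. In input they ranged from 0 to 2, 0 to 0, 0 to 11 and 0 to 5 for the variants in the same order and 0 to 1 for the empty vector (main 0 in each). IP against input gave 15 to 108 (main 100) for WT-AGO2, 31 to 109 (main 92) for F182del, 14 to 76 (main 49) for N359H, 9 to 65 (main 27) for G604R and 0 to 48 (main 9) for D619N. Interactions gave 0 to 6 (main 1), 0 to 1 (main 0), 0 to 4 (main 2) and 1 to 7 (main 5) for the variants in the same order. Depth limits Mir-218 most, with 11 of 18 IP libraries under 3 reads.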
